A study of Arabidopsis thaliana with 42 samples.

Results

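The 24 libraries described here come from 12 natural accessions of Arabidopsis thaliana whose seedling RNA held opposite levels of morning and evening clock genes, 2 libraries for each accession. They are part of 42 libraries from the 19 founder accessions of the MAGIC mapping population. The evening-like group holds Rsch-4, Sf-2, Tsu-0, Wil-2, Ws-0, Wu-0 and Zu-0, 7 accessions with high GI, ELF4 and TOC1 and low CCA1. The morning-like group holds Kn-0, Ler-0, Mt-0, Oy-0 and Po-0, 5 accessions with the opposite levels. The other 7 accessions (Bur-0, Can-0, Col-0, Ct-1, Edi-0, Hi-0 and No-0) lie between the groups or are mixed and were left out of both. All plants were inbred natural accessions with no treatment named in the labels, about 11 days old, kept on soil at 20 C with 16 hours of light a day and 8 of dark, from seed stratified at 4 C for 5 days. Polyadenylated RNA came from seedlings, the 2 libraries of an accession are labelled as biological replicates, and no label gives a harvest hour or says how plants were pooled. In such samples, fewer cells of a type and less RNA per cell cannot be told apart.

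The plant circadian clock is a ring of transcription factors that repress each other in turn. CCA1 and LHY accumulate around dawn and repress evening genes, the pseudo-response regulators (PRR) act in a sequence through the day, and TOC1, GI and the evening complex with ELF4 and LUX follow towards dusk. The ring reaches the rest of the genome through output genes, many of which carry the evening element, a short promoter sequence bound by CCA1, LHY and the related REVEILLE (RVE) proteins. Outputs known in seedlings include starch turnover, cold response, flowering time and pigment synthesis.

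Levels are RPKM, reads scaled by the length of the exon model and by the mapped total of the library, given as the mean of the 2 libraries of an accession. Differences between groups are differences of the group means on the log2(RPKM + 1) scale, which understates the change of low genes. Estimated depth was 1240000 to 4700000 reads over the 24 libraries, and 3 reads on 1500 bases were worth 0.426 to 1.61 RPKM, a floor that covers counting error only. Among the 12 accessions each of 4 pairs of sequencing lanes held 1 group alone. Kn-0 and Ler-0 shared lanes 3 and 4 of run 38, Mt-0, Oy-0 and Po-0 lanes 5 and 6, and Wil-2, Tsu-0, Sf-2 and Rsch-4 lanes 7 and 8, while Ws-0, Wu-0 and Zu-0 were on lanes 1 and 2 of run 39, with both Zu-0 libraries on lane 1. Lane pair and group therefore cannot be told apart in this contrast, and no value within a pair exists for it. The leaf gene RBCS1A, a small subunit of Rubisco, stood at 19048 ± 2811 RPKM (SD, n = 7) and 18664 ± 1380 RPKM (SD, n = 5). RCA, the activase of Rubisco, stood lower in the evening-like group without overlap, at 4059 ± 552 against 5763 ± 426 RPKM (SD), and LHCB1.3, a light-harvesting protein, at 3132 against 2767 RPKM with overlap. In the same contrast, none of the 3 leaf genes was called, and none of the 4 root, 3 flower and 10 reference genes that could be tested was called. Over all genes tested, 0.513% were called higher and 0.489% lower, so no call among so few genes says little about tissue make-up.

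The groups were chosen from the levels of 4 clock genes, so those levels and the contrast as a whole are a description and carry no test. The clock index, the mean of GI, ELF4 and TOC1 minus CCA1 on the log2 scale, ran from 1.14 in Wil-2 to 4.90 in Zu-0 in the evening-like group. In the morning-like group it ran from -2.36 in Mt-0 to -1.10 in Oy-0. Just outside the groups, Bur-0 had an index of 0.79 and Col-0 of -0.43. No-0, also left out, averaged 1.60, above Wil-2, with replicates at -0.67 and 3.87. GI stood at 15.5, 17.5, 14.8, 20.7 and 20.4 RPKM in Kn-0, Ler-0, Mt-0, Oy-0 and Po-0, and from 34.1 in Wil-2 through a median of 44.6 to 54.0 in Zu-0. CCA1 stood at 35.8, 35.6, 37.2, 24.8 and 25.5 RPKM in the same morning-like accessions and ran from 1.58 in Zu-0 through a median of 4.26 to 11.4 in Wil-2. Oy-0 and Po-0 on one side and Wil-2 on the other were the nearest to the middle for both genes.

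Of 23 core clock genes that the index did not use, 5 were higher and 7 lower in the evening-like group, where 0.513% and 0.489% of all 20453 genes tested were. The higher ones were FKF1, an F-box protein that senses blue light and times flowering, PRR5, PRR3, LUX and JMJD5, a demethylase linked to the clock. The lower ones were LHY, RVE1, RVE8, PRR9, LNK2, LNK3 and LNK4, the LNK proteins being partners of RVE8. FKF1 averaged 40.9 ± 13.1 RPKM (SD, n = 7) against 2.55 ± 1.77 (SD, n = 5), and LHY 1.39 against 10.1 RPKM. ASG4, a REVEILLE relative outside the lists and named after its values were seen, was listed at 0 in Rsch-4 and reached 0.768 RPKM in Zu-0, against 2.40 in Oy-0 to 3.69 in Kn-0. PRR9 shares 32.8% of its exon sequence words with another place in the genome, so its level is uncertain. The leaf gene LHCB1.3 shares 33.2%, with the same limit.

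Outside the clock lists, 97 genes were higher in the evening-like group, 0.475% of 20426 genes tested, and 92 were lower, 0.45%. A gene was called when the 7 and the 5 accession means did not overlap and the group means differed by at least 1 on the log2 scale. Because the groups were set by the same contrast, nothing is read from these shares. The gene lists below were chosen with earlier results of these data known, so counts within them are also a description. Without the size limit, 396 genes (1.94%) lay above and 449 (2.2%) below without overlap. The called differences ran from 1.00 to 4.38 with a median of 1.37 for higher genes, 20 of which reached 2, and the median for lower genes was -1.28, with 8 that reached a size of 2. Just inside the limit lay CP29, a chloroplast RNA-binding protein, and CAM9, a calmodulin.

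**Figure D1:**
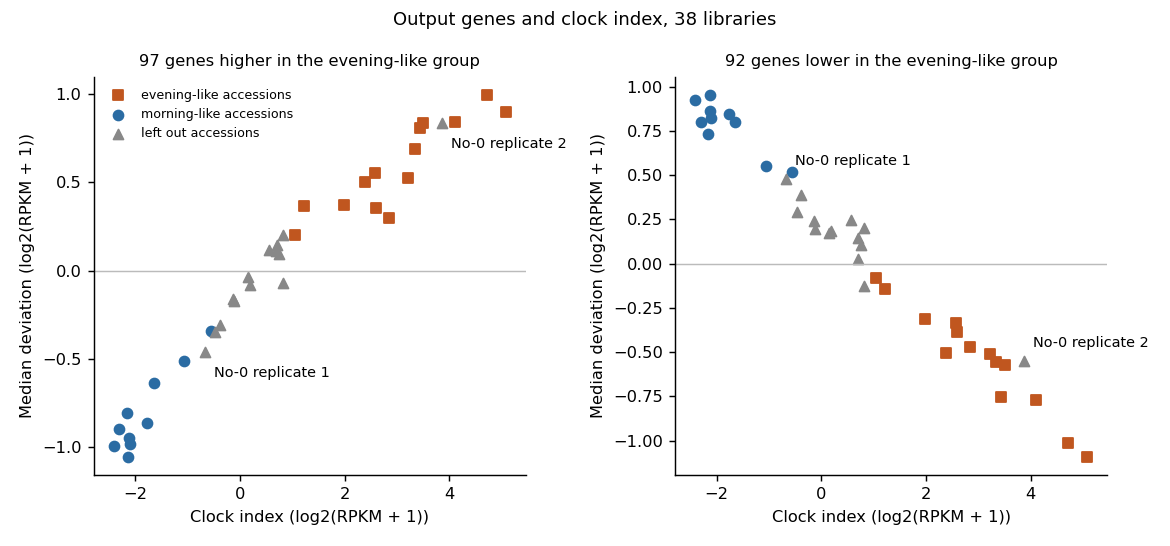
Each point is 1 of 38 libraries, with its clock index on the x axis and, on the y axis, the median over the called genes of the library's log2(RPKM + 1) minus the mean of the 12 accessions (left, 97 genes higher in the evening-like group; right, 92 lower genes). The groups separate because the genes were chosen on them; the grey left-out libraries were not used, and No-0 replicate 1 lies at -0.46 and replicate 2 at 0.84 for the higher genes.

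The largest difference among the higher genes, on the log2 scale, belonged to AT1G07050, which encodes a protein with a CCT motif, the domain shared by CONSTANS and TOC1. It stood at 2.57, 1.56, 2.44, 10.8 and 3.97 RPKM in Kn-0, Ler-0, Mt-0, Oy-0 and Po-0 and ran from 35.7 in Wil-2 through a median of 98.5 to 143 in Zu-0, a difference of 4.38. Oy-0, the highest of the morning-like accessions, remained below Wil-2, the lowest of the evening-like ones. COR27, a cold-regulated repressor of clock genes, was listed at 0 in Kn-0 and Po-0 and stood at 0.316, 0.276 and 0.141 RPKM in Ler-0, Mt-0 and Oy-0, all under the floor. It ran from 5.89 in Wil-2 through a median of 15.5 to 65.1 RPKM in Zu-0. COR28, which acts with it, averaged 9.36 ± 6.80 RPKM (SD, n = 7) against 0.536 ± 0.340 (SD, n = 5). GRP7 and GRP8 are glycine-rich RNA-binding proteins that form a feedback loop fed by the clock. GRP7 stood at 331, 211, 261, 477 and 295 RPKM in the morning-like accessions and from 1706 in Wil-2 through 2661 to 4053 in Zu-0. The lowest evening-like accession was above the highest morning-like one, Oy-0. GRP8 differed less, by 1.01, with 467 ± 98.4 RPKM (SD, n = 7) against 233.7 ± 50.7 (SD, n = 5). All 4 genes of the GRP and COR27 list were called higher over the 12 accessions, beside 0.475% of all genes outside the clock lists. Their median difference was 2.86, beside -0.01 over all genes tested. The list was chosen with earlier results of these data known, so the count and the median are a description. GRP8 was not called without replicate 1 (0.96), Rsch-4 (0.93), Tsu-0 (0.99), Zu-0 (0.99), Ler-0 (0.92) or Mt-0 (0.94), or where single libraries had to separate.

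Windows upstream of higher genes are shown because the share of genes with an evening element differed between the called sets. They are the 250 bases before the RefSeq gene start, build TAIR10.1, read 5′ to 3′ on the strand of the gene, with the evening element AAAATATCT or its reverse complement in capitals. The windows of GRP7 (chr2:9266558-9266807, minus strand), BBX8 (chr5:19563833-19564082, minus strand) and PWD (chr5:9261229-9261478, plus strand) hold 3, 3 and 1 copies and no exon of another gene.
GRP7: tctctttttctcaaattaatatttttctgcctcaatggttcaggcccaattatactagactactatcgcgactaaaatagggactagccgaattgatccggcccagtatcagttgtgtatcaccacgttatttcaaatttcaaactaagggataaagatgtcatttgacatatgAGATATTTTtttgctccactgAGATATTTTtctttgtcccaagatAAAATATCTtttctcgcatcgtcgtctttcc
BBX8: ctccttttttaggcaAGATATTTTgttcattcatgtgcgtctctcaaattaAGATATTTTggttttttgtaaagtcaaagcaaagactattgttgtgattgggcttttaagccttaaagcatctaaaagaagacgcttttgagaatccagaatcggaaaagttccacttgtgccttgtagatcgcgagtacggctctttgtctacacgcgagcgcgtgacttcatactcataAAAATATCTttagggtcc
PWD: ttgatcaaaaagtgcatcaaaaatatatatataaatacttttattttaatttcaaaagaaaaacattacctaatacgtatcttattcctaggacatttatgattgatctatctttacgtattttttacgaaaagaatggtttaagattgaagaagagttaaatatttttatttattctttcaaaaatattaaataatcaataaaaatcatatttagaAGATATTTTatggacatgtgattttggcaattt
The copies nearest the gene start end 23 bases before it in GRP7, 10 in BBX8 and 25 in PWD.

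Searched on both strands, the evening element was present in the 250-base window of 24 of 97 higher genes (24.7%) and of 1 of 92 lower genes (1.09%). Over all 20023 genes tested outside the clock lists that have a full window, 2.51% held it. In windows of 500 bases the shares were 28.9%, 1.09% and 4.48%. The CCA1-binding site AAAAATCT, whose letters are not contained in the evening element, was found in 6.19% of higher and 10.9% of lower genes beside 6.79% of all. The G-box CACGTG, a palindrome bound by bZIP and bHLH factors, was found in 12 of 97 higher and 16 of 92 lower genes beside 7.24% of all. The morning element CCACAC and the telo-box AAACCCT stood at 10.3% and 6.19% of higher genes and 9.78% and 2.17% of lower genes, beside 6.45% and 6.5% of all. These matches describe letters in a window and are not sites of binding.

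**Figure D2:**
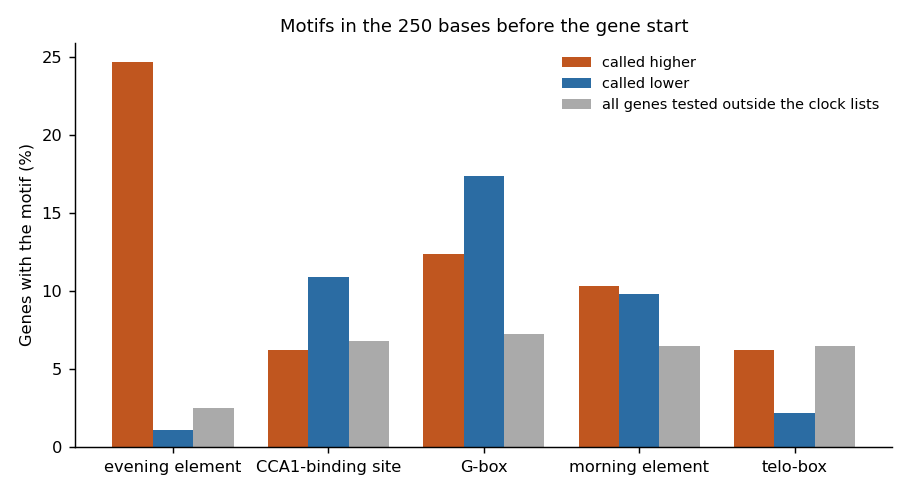
Bars give the share of genes, in percent, with each motif on either strand of the 250 bases before the gene start, for the 97 called higher genes, the 92 called lower genes and all 20023 genes with a window. The evening element stands at 24.7% in the higher genes and 1.09% in the lower genes beside 2.51% of all.

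BBX8 and COL9 are B-box proteins with a CCT domain, and COL9 is known to delay flowering. BBX8 stood at 4.03, 3.97, 3.75, 7.93 and 4.94 RPKM in Kn-0, Ler-0, Mt-0, Oy-0 and Po-0 and from 16.9 in Wil-2 through 30.8 to 50.9 in Zu-0. COL9 averaged 16.6 ± 9.82 RPKM (SD, n = 7) against 1.82 ± 0.513 (SD, n = 5). The photoperiod list of 16 genes, CONSTANS relatives and their regulators, held 1 higher gene, COL9, and 6 lower ones. The shares over all genes outside the clock lists were 0.475% higher and 0.45% lower. COL2, a close homolog of CONSTANS, stood at 41.6, 35.3, 39.3, 22.5 and 29.0 RPKM in the morning-like accessions and from 2.89 in Zu-0 through a median of 5.01 to 9.75 in Wil-2. The groups did not overlap, and Oy-0 and Wil-2 were again nearest to each other. COL1, another CONSTANS-like gene, differed by -2.24 and BBX25, which acts with the HY5 light pathway, by -1.88. CDF2, a cycling DOF repressor of CONSTANS, also named after its values were seen, averaged 0.962 RPKM against 3.42, close to the floor. The median difference of the list was -0.63. Exons of COL1, COL2, BBX8 and BBX25 overlap those of neighbouring genes, and no source used here says whether counting used strand, so reads of the overlap cannot be assigned.

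**Figure D3:**
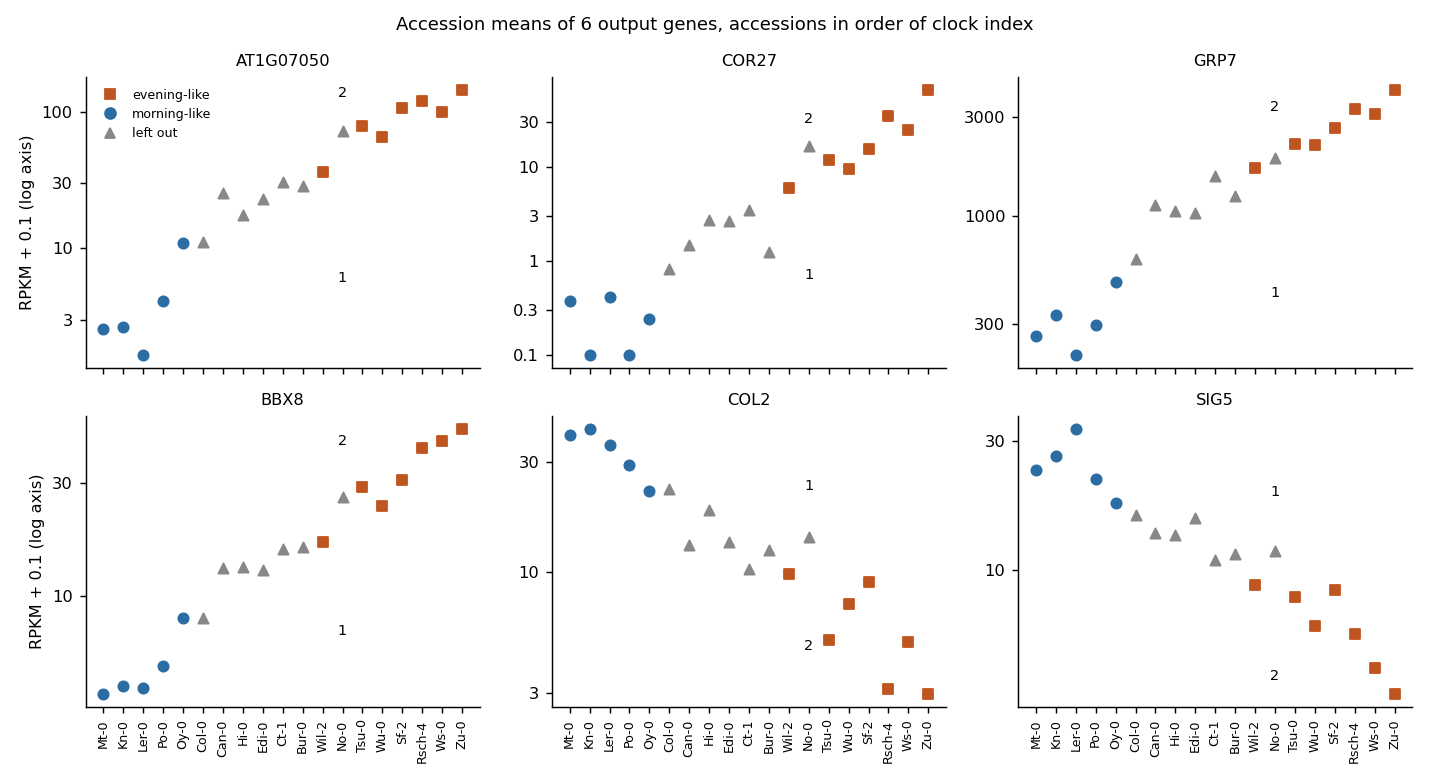
Each panel plots 1 gene, with accessions on the x axis in order of clock index and the mean RPKM of 2 libraries plus 0.1 on a log axis (squares evening-like, circles morning-like, triangles left out; the digits 1 and 2 mark the replicates of No-0). AT1G07050, COR27, GRP7 and BBX8 lie low at the morning-like end and COL2 and SIG5 high. Left-out accessions lie between or reach into a group. For GRP7, No-0 averages 1902 RPKM, above Wil-2 at 1706, with its replicates at 419.9 and 3384. For COL2, Col-0 stands at 22.8 RPKM, above Oy-0 at 22.5.

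The CBF factors and their targets protect membranes and proteins in the cold, and the clock is known to set the time of day at which CBF genes respond. Of 14 cold-response genes, 7 were higher and 0 lower, beside 0.475% and 0.45% of all genes outside the clock lists. The median difference of the list was 1.06. COR15B, which encodes a chloroplast protein that guards membranes, stood at 27.0, 8.92, 25.8, 37.8 and 14.8 RPKM in Kn-0, Ler-0, Mt-0, Oy-0 and Po-0. In the evening-like group it ran from 48.9 in Wil-2 through a median of 105 to 198 in Ws-0. The groups did not overlap, although its exons overlap a neighbouring gene. KIN2 averaged 85.0 ± 34.6 RPKM (SD, n = 7) against 19.2 ± 6.64 (SD, n = 5), KIN1 differed by 1.76 and RD29A, a dehydration and cold marker, by 1.45. KIN1 and KIN2 share 6.74% and 7.54% of their exon sequence words with other places, so reads may be split between them. CBF3, a factor above these targets, averaged 5.24 ± 3.39 RPKM against 1.26 ± 0.307, with the lowest evening-like level, 2.14 RPKM in Zu-0, not far above the highest morning-like one, 1.56 in Oy-0. Beyond the list, AT4G30650 and RCI2A, the second named after its values were seen, of the family of small hydrophobic membrane proteins responsive to cold and salt differed by 2.55 and 2.15.

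Starch is built by day and broken down at night. Of 23 starch genes, 3 were higher and 2 lower, beside 0.475% and 0.45% of all genes outside the clock lists. The median difference of the list was 0.04. PHS2, whose exons overlap a neighbour's, a cytosolic glucan phosphorylase of night-time maltose use, stood at 96.3, 82.7, 76.8, 171 and 146 RPKM in the morning-like accessions and from 217 in Wil-2 through 277 to 386 in Zu-0. PWD, which phosphorylates glucans so that starch can be broken down, averaged 67.6 ± 15.5 RPKM (SD, n = 7) against 27.6 ± 4.98 (SD, n = 5), and SBE2.1, a starch branching enzyme named after its values were seen, differed by 1.03. GBSS1, the granule-bound synthase that makes amylose, was lower, at 46.9, 55.1, 60.0, 24.8 and 31.1 RPKM in the morning-like accessions against 5.96 in Ws-0 through 11.9 to 15.5 in Tsu-0. BAM9, a member of the beta-amylase family, differed by -1.41. In the list of genes that respond to darkness and low sugar, DRM2 and DRM1, dormancy-associated proteins, were higher by 3.27 and 1.85. The other 11 members were not called, and TPS8, a trehalose phosphate synthase family protein, averaged 13.7 RPKM against 25.5.

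Light signalling sets pigment synthesis and protection. Of 15 light signalling genes, 3 were lower and 0 higher, beside 0.45% and 0.475% of all genes outside the clock lists. The median difference of the list was -0.54. ELIP1, an early light-induced protein that binds chlorophyll under excess light, stood at 96.1, 82.8, 33.2, 61.0 and 46.7 RPKM in Kn-0, Ler-0, Mt-0, Oy-0 and Po-0 and from 7.83 in Wil-2 through 16.2 to 19.6 in Ws-0. HYH, a homolog of the HY5 factor, differed by -1.46 and RUP2, a repressor of UV-B signalling, by -1.36. SIG5, a sigma factor that carries clock and light signals into plastid transcription, stood at 26.2, 33.2, 23.3, 17.61 and 21.5 RPKM in the morning-like accessions and ran from 3.36 in Zu-0 through 6.08 to 8.63 in Wil-2. It was the 1 lower gene of the chlorophyll list of 15. PORB, a light-dependent enzyme of chlorophyll synthesis, was the 1 higher gene, at 1218 ± 110.0 RPKM (SD, n = 7) against 602 ± 92.5 (SD, n = 5). Without the size limit, 5 of the 15 lay lower without overlap and 1 higher, beside 2.2% and 1.94% of all genes outside the clock lists. Of 20 light-harvesting genes 1 was called, LHCB4.3 at -1.20, and the list median was -0.01. The windows of ELIP1 (chr3:8085670-8085919, minus strand) and BAM9 (chr5:6225706-6225955, plus strand) are shown as lower genes with a G-box, in capitals.
ELIP1: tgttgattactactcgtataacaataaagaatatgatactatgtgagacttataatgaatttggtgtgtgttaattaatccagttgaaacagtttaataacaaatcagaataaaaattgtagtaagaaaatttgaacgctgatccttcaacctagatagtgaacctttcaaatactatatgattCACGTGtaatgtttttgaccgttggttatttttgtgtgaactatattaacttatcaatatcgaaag
BAM9: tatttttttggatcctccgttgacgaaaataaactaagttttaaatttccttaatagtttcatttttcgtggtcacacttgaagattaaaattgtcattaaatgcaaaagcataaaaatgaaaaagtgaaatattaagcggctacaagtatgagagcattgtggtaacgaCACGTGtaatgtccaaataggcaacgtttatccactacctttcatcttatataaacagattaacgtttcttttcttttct
Neither window holds the evening element.

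The catalase, nitrogen and sulfate lists of 3, 6 and 4 genes each held 1 called gene, CAT2, NIA2 and APR2, all lower. Over all genes outside the clock lists, 0.45% were called lower. CAT2, the main leaf catalase, averaged 301 ± 77.2 RPKM (SD, n = 7) against 631 ± 120.4 (SD, n = 5). CAT3, the catalase known for an evening peak, averaged 1145 against 728 RPKM with overlapping groups. NIA2, a nitrate reductase, differed by -1.05 and APR2, the enzyme that reduces activated sulfate, by -1.45. CAT2 was not called without Zu-0 (-0.93), and NIA2 not without replicate 1 (-0.96), Zu-0 (-0.95), Rsch-4 or Kn-0, or where single libraries had to separate. Of called genes in no list, the ammonium transporter AMT1;2 differed by -1.96. VTC2, a regulated enzyme of ascorbate synthesis, differed by -1.04, and was not called without replicate 1 (-0.96), Ler-0 (-0.96), Zu-0 (-0.97) or Mt-0 (-0.98), and PDS1, a dioxygenase on the way to tocopherol and plastoquinone, by -1.18. TRY, a small MYB protein that represses trichome formation, averaged 1.56 RPKM against 7.93. The largest difference among lower genes, -2.74, belonged to AT1G65490, an uncharacterized protein at 22.3, 37.5, 42.6, 28.2 and 18.01 RPKM in the morning-like accessions and between 0.687 in Tsu-0 and 8.28 in Wu-0 in the evening-like ones. ANK (AT5G54610), an ankyrin-repeat gene, differed by -2.36. Exons of PORB, CAT2, APR2, SBE2.1, BAM9, CBF3, RCI2A and ANK also overlap those of other genes, with the same limit on assigning reads. So do those of PDS1, CHS, DREB2B, BBX32, AT2G47890, FKF1, RVE1, LUX, LNK2, LNK3, LNK4, ASG4, RCA and LHCB1.3.

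Several lists held no called gene. None of 13 genes of PIF factors and their growth targets, 9 of gibberellin and brassinosteroid, 19 of phenylpropanoid and flavonoid, 7 of jasmonate, 9 of abscisic acid and 3 of touch was called. PIF5 averaged 42.7 RPKM against 67.6 with overlap. PAL1, the entry enzyme of the phenylpropanoid pathway, and CHS, which opens flavonoid synthesis, had groups that did not overlap, at sizes just under 1, with 37.97 against 76.8 RPKM for PAL1 and 101 against 191 for CHS. In the phenylpropanoid and flavonoid list 4 of 19 genes lay lower without overlap and 0 higher, with a list median of -0.28. Over all genes outside the clock lists, 2.2% lay lower and 1.94% higher without overlap. Of 8 heat shock genes tested, 1 was lower, HSP70 at -1.16. The shares called over all genes outside the clock lists were 0.475% higher and 0.45% lower. Short lists would often hold no called gene at such shares, so its absence is not read as a result about these pathways.

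**Figure D4:**
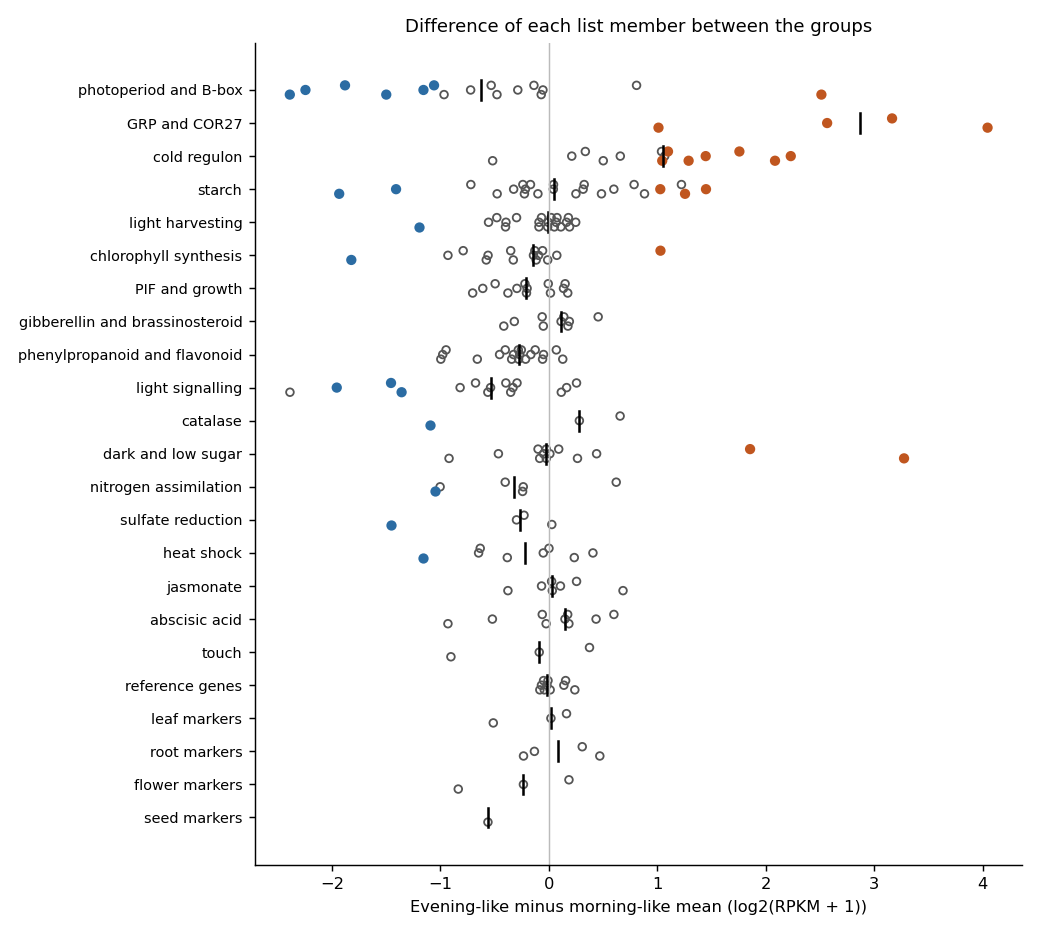
Each circle is a gene of a list, placed on the x axis by its difference of group means (evening-like minus morning-like, log2(RPKM + 1)); filled circles are called and the black bar is the median of the list. The 4 genes of the GRP and COR27 list and 7 of 14 cold genes are filled on the right. On the left, 6 of 16 photoperiod genes are filled, and reference genes centre on -0.01. Over all genes outside the clock lists, 0.475% were called higher and 0.45% lower.

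The accession No-0, left out of both groups, held libraries in different clock states within 1 genotype and 1 lane pair. Its replicate 1, on lane 5 of run 38, had a clock index of -0.67 and its replicate 2, on lane 6, 3.87. With 1 library on each side there is no test. GRP7 stood at 419.9 RPKM in replicate 1 and 3384 in replicate 2, AT1G07050 at 5.93 and 138, COR27 at 0.615 and 32.5, and COL2 at 23.61 and 4.71. Of the 97 higher genes, 92 were higher in replicate 2, and 62 by at least 1, against 49.3% and 3.58% of all genes outside the clock lists. Of the 92 lower genes, 88 were lower in replicate 2, and 50 by at least 1, against 45.7% and 3.05% of all. The median shift was 1.27 for higher and -1.07 for lower genes. BT2, a BTB protein regulated by sugar and the clock, and named after its values were seen, stood at 2.98 and 57.3 RPKM. In Mt-0, Oy-0 and Po-0, which were sequenced on the same lanes 5 and 6, the median shift of the higher genes from replicate 1 to replicate 2 was 0.0187, 0.353 and 0.369, and the index differed by 0.107, 1.08 and 0.705. TRY stood at 3.59 and 3.54 RPKM in No-0 and so did not follow.

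**Figure D5:**
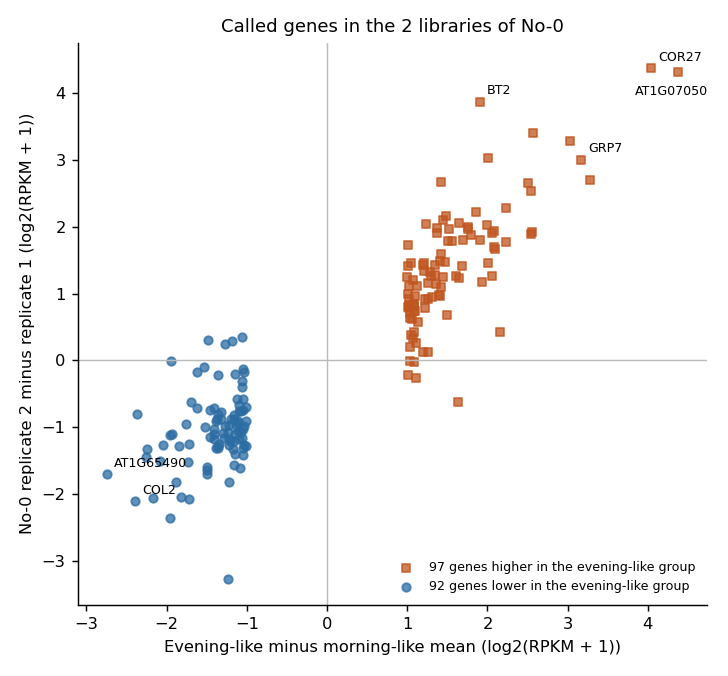
Each point is a called gene, with the difference between the groups on the x axis and the difference between the No-0 libraries, replicate 2 minus replicate 1, on the y axis, both in log2(RPKM + 1). Of the 97 genes on the right 92 lie above 0, and of the 92 on the left 88 lie below.

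The 7 left-out accessions were in neither group, and their levels of output genes were not used to call the 97 and 92 genes, although their clock gene levels were used to leave them out. The accession means of log2(RPKM + 1) were fitted on the clock index with limma, and p-values were adjusted by the Benjamini-Hochberg method over all 20453 genes. No gene passed at 0.05 in either direction (0.0%), with 453 positive (2.22%) and 467 negative slopes (2.29%) at an unadjusted p under 0.05 outside the clock lists. Their index ran from -0.43 in Col-0 to 1.60 in No-0, and the fit left 5 residual degrees of freedom. Without No-0, 1 gene passed with a positive slope and 0 with a negative one. Of the 97 higher genes, 90 had a positive slope, and 26 of these had an unadjusted p under 0.05. Of the 92 lower genes, 75 had a negative slope, and 12 of these an unadjusted p under 0.05, beside 50.3% positive and 49.2% negative slopes over all genes. The smallest unadjusted p-values among higher genes were those of AT1G51090, OEP16-1, COL9, DREB2B and BBX8. OEP16-1, a channel of the outer plastid envelope, had a slope of 0.37 ± 0.08 (SE, limma, unadjusted 0.00337, adjusted p = 1) and COL9 of 0.53 ± 0.13 (SE, limma, unadjusted 0.00395, adjusted p = 1). Among lower genes, VTC2 had a slope of -0.31 ± 0.08 (SE, limma, unadjusted 0.00436, adjusted p = 1) and BBX25 of -0.41 ± 0.10 (SE, limma, unadjusted 0.00519, adjusted p = 1). COL1 (0.02), GBSS1 (-0.02), PHS2 (0.04) and AMT1;2 (-0.02) had slopes near 0 in these accessions. KIN1, a higher gene, had a slope of the other sign, -0.17 ± 0.23 (SE). Of the 14 cold genes, 7 had a positive slope at an unadjusted p under 0.05 (limma) and 0 a negative one. They were not the same 7 as the called cold genes. CBF1, CBF2 and COR15A had such a slope without being called, and KIN1 and KIN2 were called without one. CBF1 stood at 2.76 RPKM in No-0 and at 0.906 in Ct-1, the next highest left-out accession.

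Lane pair entered as a term in a fit over all 19 accessions, which compares accessions only with those of the same lanes, so that the difference between the groups drops out. The fit still holds the 12 accessions that set the groups, and its index is built from the genes that chose them, so it is not independent of the choice. In this fit with limma, 117 genes had a positive slope (0.573%) and 99 a negative one (0.485%) at an adjusted p under 0.05 outside the clock lists. They included 62 of the 97 higher and 37 of the 92 lower genes, or 44 and 13 without No-0, a fit tried after the values were seen. These genes were chosen for separating the same accessions, so the shared sign is partly fixed by that choice, and the slopes of single genes are a description with no test. Per unit of the index, BBX8 had a slope of 0.54 ± 0.04 (SE), AT1G07050 of 0.88 ± 0.08, GRP7 of 0.61 ± 0.06 and COL2 of -0.48 ± 0.06. Of the 14 cold genes, 3 were among the genes with a positive slope at that threshold and 0 among those with a negative one. Among cold genes the slope was 0.60 ± 0.12 for COR15B and 0.18 ± 0.10 for KIN1, and among starch genes 0.30 ± 0.05 for PHS2, -0.37 ± 0.07 for GBSS1 and -0.07 ± 0.07 for BAM9.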

How the data were processed

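Transcript levels were deposited by the authors as RPKM per gene and library, with a code of -1 where no value is given, which was recorded as a unit of its own (other) and treated as missing. The submitters' processing notes name the builds TAIR9 and TAIR10; the aligner and strand use are not given in the sources used here. Accession means of log2(RPKM + 1) over 2 libraries were compared for 20453 genes with at least 1 RPKM in 2 of the 38 biological libraries and a value in every library; 216 genes that passed the level filter lacked one. A further 4 Col-0 libraries, technical repeats, were not used. The groups were set from measured levels, so the contrast has no test. Slopes on the clock index used limma 3.58.1 in R 4.3.3 with Benjamini-Hochberg adjustment, tested on simulated data. P-values measure the spread between accessions. Upstream sequences are from RefSeq, build TAIR10.1; 1 upstream window is not reported here. Exon sequence words are runs of 30 bases. Members and gene lists were chosen with earlier results of these data known. Named genes were the 12 largest called differences in each direction, up to 4 genes of each list by size, and the 10 called genes in each direction with the smallest slope p of the same sign; exceptions are marked. Alternatives covered pseudocount, filter, scaling, replicates, accessions, lane pairs and the unit of the fit.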

Additional observations from a re-analysis of the deposited data

Results flagged for a closer look

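For the named called genes, the clock index and the medians of the called genes, 134 sets of 5 or 7 accession values were examined. A value far from the others was found in 5 sets, no more than the about 1 in 20 that chance alone gives. For genes, the gaps were taken on the log2(RPKM + 1) scale, while the levels are given in RPKM. In the evening-like group AT4G16146, annotated as related to a phosphoprotein, stood at 27.7 RPKM in Wu-0, with a gap to its neighbour of 0.572 of the group's range. BBX32, a small B-box protein, stood at 2.201 RPKM in Wil-2, the evening-like accession with the lowest clock index, with a gap of 0.622. CAT2, the catalase, stood at 145 RPKM in Zu-0, the accession with the highest index, with a gap of 0.718. UMAMIT12, a transporter family protein, stood at 4.49 RPKM in Ws-0, with a gap of 0.614. In the morning-like group the cold factor CBF3 stood at 0.745 RPKM in Kn-0, with a gap of 0.75.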

How the results depend on the processing

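The counts of 97 higher and 92 lower genes became 254 and 294 with a difference of at least 0.5, and 56 and 49 where single libraries had to separate. Leaving out 1 accession gave 86 to 113 higher and 80 to 144 lower genes, with 144 lower genes without Wil-2. Leaving out a replicate gave 76 and 67 (without replicate 1) or 104 and 105 (without replicate 2). Leaving out the lane pair of Wil-2, Tsu-0, Sf-2 and Rsch-4 gave 169 and 284, and that of Mt-0, Oy-0 and Po-0 162 and 216. Without the pair of Kn-0 and Ler-0 the counts were 104 and 162, and without that of Ws-0, Wu-0 and Zu-0 106 and 86. Fewer accession means then had to stay apart. Of 56 named called genes outside the clock lists, 22 were not called under at least 1 alternative other than a lane pair left out, among them DRM2, COR15B, KIN1, KIN2, RD29A, CBF3, ERD7, ELIP1, RUP2 and PORB. The slope test with 0 calls gave 117 positive and 99 negative genes over 19 accessions with the lane pair as a term, and 71 and 48 without No-0. Leaving out 1 accession gave 0 to 1 positive and 0 negative genes, the 1 without No-0. The slope of UMAMIT12, -0.57, became -0.38 without replicate 1 and 0.165 without replicate 2. As a check on pairing by replicate number, deviations correlated at -0.0919 to 0.1144 between left-out accessions. Between the 12 member accessions the range was -0.1087 to 0.0915. Only 1 left-out accession, No-0, was on lanes 5 and 6. On these lanes the index rose from replicate 1 to replicate 2 in Mt-0, Oy-0, Po-0 and No-0, by 0.107, 1.08, 0.705 and 4.54. A further fit used single libraries, with accession as the block and replicate number as a term. In it the 2 libraries of an accession enter as separate but correlated values. In that fit 177 positive and 148 negative genes passed, and 0 and 2 without No-0. Both fits without No-0 that are not single omissions were chosen after seeing the data. The cause of these changes was not tested. Depth limits genes near the floor, such as COR27 in the morning-like accessions.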

Other observations

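The B-box family, zinc finger proteins of light signalling and flowering, was listed in full after its values were seen. Of 32 genes 28 could be tested, and 4 were higher and 8 lower in the evening-like group. Over all genes outside the clock lists, 0.475% were higher and 0.45% lower. The median difference of the family was -0.31. BBX13 averaged 22.8 ± 5.74 RPKM (SD, n = 7) against 6.06 ± 1.97 (SD, n = 5), and AT2G47890 averaged 25.9 against 10.7 RPKM. BBX16 averaged 8.29 ± 5.94 RPKM (SD, n = 7) against 34.5 ± 4.48 (SD, n = 5). BBX31 and BBX32, small members without a CCT domain, averaged 0.838 and 0.541 RPKM against 5.97 and 5.04. COL3, at 138 against 142 RPKM, and BBX12, at 8.83 against 8.94 RPKM, differed by less than their SD. The same contrast set the groups, so these values are a description.

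Libraries of Oy-0 and Po-0 also differed in clock index, from -1.64 to -0.56 in Oy-0 and from -1.77 to -1.06 in Po-0. Of the 97 higher genes, 75 in Oy-0 and 78 in Po-0 stood above replicate 1 in replicate 2, beside 43.6% and 54.1% of all genes tested. Accessions with a like shift of the index did not all show this. In Sf-2, with an index shift of 0.8399, it was 62 genes beside 47.7% of all, and in Ws-0, with a shift of 0.668, it was 48 beside 41.1%. In Kn-0, whose index differed by -0.0657, it was 66 beside 41.6%.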
